A study of Rattus norvegicus with 89 samples.

Results

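The histone deacetylase genes described here are Hdac1, Hdac2, Hdac3, Hdac4, Hdac5, Hdac6, Hdac7, Hdac8, Hdac10 and Hdac11, measured as mRNA in rat kidney after valproic acid and 5 nephrotoxicants. Members were taken by gene symbol, a rule that uses no measured value, which gave 15 probe sets for 10 genes among 31099 probe sets and 14217 named genes on the array. The 89 Sprague-Dawley Crl:CD(SD) rats were 44 males and 45 females, bought at about 7-8 weeks of age and housed singly, and each gave 1 array of RNA from the homogenized apical parts of both kidneys. Rats received valproic acid for 1 day (n = 6) or 5 days (n = 6). Gentamicin (Gentamycin in the labels), tobramycin, cisplatin and cadmium had 6 rats at each time, and doxorubicin had 6 at day 1 and 5 at day 5. The controls were saline for 1 day (n = 7), saline for 5 days (n = 5) and naive, untreated rats (n = 6). Each group held 3 rats of each sex, except for 2 male doxorubicin rats at day 5, 4 female saline rats at day 1 and 2 female saline rats at day 5. The labels state no dose or route.

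Histone deacetylases remove acetyl groups from lysines of histones and of other proteins, and those that act on histones are mostly found as the catalytic subunits of corepressor complexes. Class I (Hdac1, Hdac2, Hdac3 and Hdac8) are largely nuclear enzymes. Class IIa (Hdac4, Hdac5 and Hdac7) shuttle between nucleus and cytoplasm and have weak enzyme activity of their own. Class IIb (Hdac6 and Hdac10) act mainly in the cytoplasm, Hdac6 on tubulin, and Hdac11 is the sole class IV enzyme. Valproic acid, a branched-chain fatty acid used against epilepsy, inhibits the activity of class I enzymes and, at higher concentrations, of class IIa enzymes. The arrays measured mRNA, so they carry no information on enzyme activity or on histone acetylation.

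Of the 15 probe sets, 12 passed the filter, a scaled signal over 33.1 on at least 5 arrays, and every gene kept at least 1 of them. The used probe set of each gene, the one with the highest mean, was above that limit on all 89 arrays. The probe sets below the filter were 1390438_at for Hdac5 and 1384992_at for Hdac10, above the limit on 0 arrays each, and 1380608_at for Hdac10, above it on 4 arrays. A second Hdac1 probe set, 1396820_at, was above the limit on 89 arrays, and 1384991_a_at for Hdac10 on 42 arrays. The other 7 members had 1 probe set each. Hdac6 (chrX:17222538-17244373) and Hdac8 (chrX:71425240-71632865) lie on the X chromosome of the GRCr8 assembly, and the other 8 genes are autosomal. RefSeq lists 18 Hdac1 pseudogenes and 1 Hdac2 pseudogene in this assembly, and how much of either gene's signal comes from them was not tested.

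The sequences of 4 members are shown because the results below turn on them: Hdac8 had the largest change at day 1 under valproic acid, Hdac6 and Hdac5 differed between the sexes, and Hdac5 and Hdac7 varied together. Each is the 250 bases before the transcript start that RefSeq's promoter list uses (GRCr8; for Hdac5, Hdac6 and Hdac7 that start lies inside the gene's outer span), written 5′ to 3′ along the gene, with GC boxes (GGGCGG or, on the other strand, CCGCCC) in capitals.
Hdac8, chrX:71632866-71633115, minus strand: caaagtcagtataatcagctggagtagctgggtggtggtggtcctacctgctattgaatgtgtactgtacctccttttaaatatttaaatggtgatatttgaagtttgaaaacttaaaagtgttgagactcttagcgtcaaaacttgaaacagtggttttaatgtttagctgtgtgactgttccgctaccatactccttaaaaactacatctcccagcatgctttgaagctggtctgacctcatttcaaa
Hdac5, chr10:87688055-87688304, minus strand: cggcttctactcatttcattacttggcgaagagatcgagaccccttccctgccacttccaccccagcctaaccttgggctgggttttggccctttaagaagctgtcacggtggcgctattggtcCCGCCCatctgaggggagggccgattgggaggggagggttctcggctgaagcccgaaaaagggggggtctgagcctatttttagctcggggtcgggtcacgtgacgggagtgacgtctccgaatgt
Hdac7, chr7:130841018-130841267, minus strand: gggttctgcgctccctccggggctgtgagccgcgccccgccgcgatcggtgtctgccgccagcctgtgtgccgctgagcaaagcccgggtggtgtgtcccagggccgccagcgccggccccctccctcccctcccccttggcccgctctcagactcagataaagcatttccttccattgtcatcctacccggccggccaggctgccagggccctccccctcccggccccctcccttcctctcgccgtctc
Hdac6, chrX:17222925-17223174, plus strand: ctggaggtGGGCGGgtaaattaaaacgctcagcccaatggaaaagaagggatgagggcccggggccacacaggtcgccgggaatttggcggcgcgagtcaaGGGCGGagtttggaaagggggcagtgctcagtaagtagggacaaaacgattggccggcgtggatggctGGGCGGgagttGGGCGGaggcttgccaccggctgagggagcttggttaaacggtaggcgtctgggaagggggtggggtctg
Hdac6 held 4 GC boxes, Hdac5 held 1, and Hdac7 and Hdac8 held 0 in these letters. A promoter was listed for 9 of the 10 genes, Hdac11 not among them, and 7 of the 9 held a GC box, against 32.4% of all 27457 promoters of the same length. The ratio of observed to expected CpG was over 0.6 in 8 of the 9, against 35.4% of all promoters. Hdac8 was the exception, with a ratio of 0.213 and 38.8% G+C, the lowest of the 9. CCAAT, or ATTGG on the other strand, was present in 4 of 9 (34.3% of all). The letters TATAAA, or TTTATA, were in 0 of 9 (13.1% of all), and AGAACA, or TGTTCT, the half-site of androgen and glucocorticoid receptors, in 0 of 9 (17.1% of all). Hdac5 alone of the 9 held the palindrome CACGTG (5.80% of all). A match is a description of letters and no match says nothing of a factor's binding.

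All 8 markers of proximal tubule, the main cell type of kidney cortex, were above the signal limit on all arrays of every group. Before scaling, the arrays' trimmed means ran from 91.5 to 352, and rank correlations between arrays ran from 0.898 to 0.988. The 3′ to 5′ ratio of the GAPDH control probe sets, a measure of RNA integrity that increases as RNA degrades, averaged 0.55 ± 0.36 (log2, SD, n = 6) in valproic acid rats and 0.39 ± 0.08 (n = 7) in saline rats at day 1, and 0.50 ± 0.27 (n = 6) in valproic acid rats and 0.65 ± 0.54 (n = 5) in saline rats at day 5. On 5 arrays the treatment text of the labels was absent or differed from the title. The title was used for them, and 3 of the 5 were saline rats (1F104 and 1M2 at day 1, 1M4 at day 5).

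None of the 10 histone deacetylase genes passed the test under valproic acid at either day. In limma with Benjamini-Hochberg adjustment over all 11420 genes tested, 0 of 10 members were called against saline at day 1, where 0.228% of all genes were called (26 genes), and 0 of 10 at day 5, where 0.149% were called (17 genes). At an unadjusted p under 0.05 the counts were 1 of 10 at day 1 (9.42% of all genes) and 0 of 10 at day 5 (7.46% of all genes). The members' median log2 change was 0.063 at day 1, against 0.014 over all genes, and 0.029 at day 5, against 0.0057 over all genes. The changes ran from -0.065 to 0.30 at day 1 and from -0.12 to 0.23 at day 5. Among the 10 members, the lowest and highest bounds of any 95% interval were -0.27 and 0.47 at day 1. At day 5 they were -0.48 and 0.53, so changes beyond those bounds lie outside every member's interval. In bulk kidney, fewer cells of a type and less RNA per cell cannot be told apart.

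**Figure D1:**
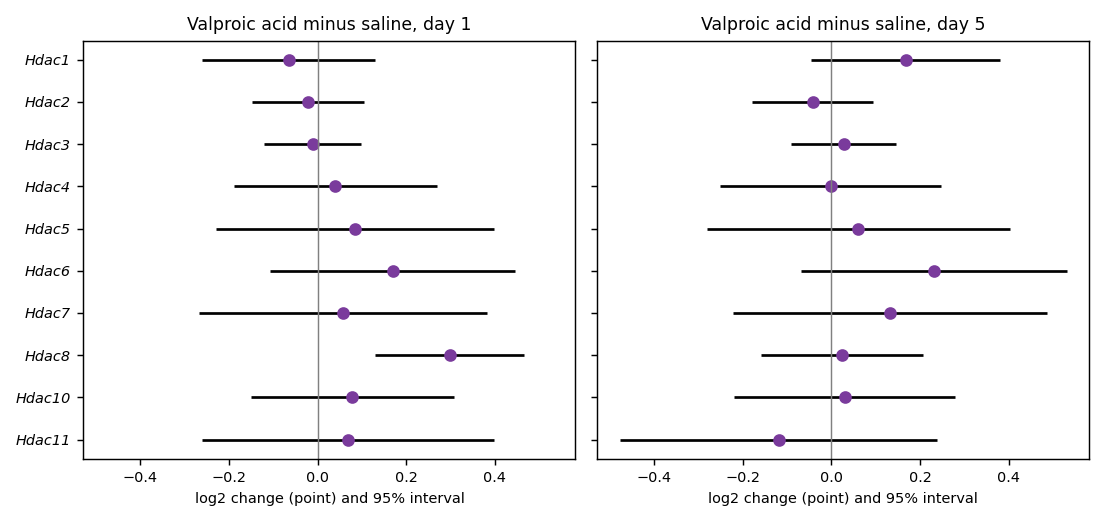
Log2 change of each histone deacetylase gene, valproic acid minus saline, at day 1 (left) and day 5 (right), from limma over all 89 arrays; points are estimates and lines are 95% intervals. The interval of Hdac8 at day 1 (0.13 to 0.47) is the only one of the 20 that does not cross 0, and no member passed the adjusted test.

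Among the class I genes, Hdac8, an enzyme known for deacetylating the cohesin subunit Smc3, had the largest log2 change of the 10 used probe sets at day 1. Its scaled signal at day 1 ran from 69.9 to 92.3 with a median of 88.0 in valproic acid rats, against 48.4 to 75.0 with a median of 69.1 in saline rats. The groups overlapped, since 1 valproic acid rat (7M55, 69.9) lay among the saline rats and the other 5, at 82.9 or more, lay above all of them. The means were 85.1 ± 8.04 (SD, n = 6) and 66.5 ± 8.96 (n = 7), a log2 change of 0.30 (SE 0.08, 1.23-fold, unadjusted p = 0.000681, adjusted p = 0.125 by limma), with 6 of 6 valproic acid rats above the saline mean of their sex. The lowest saline value belonged to 1M2, whose treatment text differs from its title, and without that rat the change was 0.24 (adjusted p = 0.312). Without any scaling between arrays the change was 0.14 (adjusted p = 0.827). At day 5 Hdac8 had 69.9 to 90.2 with a median of 79.0 in valproic acid rats, against 73.2, 74.6, 78.8, 81.4 and 82.4 in saline rats, and the groups overlapped throughout (log2 change 0.02, SE 0.09, adjusted p = 0.983).

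Both groups lay at an end of the order over the 15 groups, where the Hdac8 mean of valproic acid rats at day 1 was the highest and that of saline rats at day 1 the lowest. Against the same saline rats, the Hdac8 log2 change at day 1 was 0.23 for gentamicin (limma adjusted p = 0.962), 0.20 for tobramycin (adjusted p = 0.506) and 0.20 for cadmium (adjusted p = 0.999). These comparisons share their control samples, and the cisplatin and doxorubicin means at day 1 were also above that saline mean. Valproic acid at day 1 against naive rats gave 0.22 (unadjusted p = 0.016, adjusted p = 0.215), and against the mean of the other 6 groups of that day 0.15 (unadjusted p = 0.031, adjusted p = 0.447). The day 5 change minus the day 1 change was -0.28 (SE 0.12, unadjusted p = 0.0301, adjusted p = 0.863). Within the sexes the day 1 change was 0.28 in males and 0.33 in females (adjusted p of the difference 0.979). Of 10 dividing-cell markers, 2 were called higher against saline at day 1, where 0.228% of all genes were called. These were Cdk1, the kinase that drives entry into mitosis (log2 change 0.80, limma adjusted p = 0.00657), and Top2a, which untangles chromosomes (0.78, adjusted p = 0.0379). The 10 markers summed to 1376 to 1667 in valproic acid rats and 1250 to 1483 in saline rats. Of the 10, 2 were above the signal limit on all arrays. Any relation to the Hdac8 value was not tested.

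Hdac1, a catalytic subunit of the Sin3, NuRD and CoREST complexes, did not pass the test at either day. Its signal at day 5 was 187.0 to 222 with a median of 198 in valproic acid rats, against 164, 178, 179.9, 181.4 and 186.6 in saline rats. The groups did not overlap at day 5, by a narrow margin. That held for 1 of 10 members and 0.368% of all genes in that comparison, against 0 members and 0.271% at day 1. The means were 202 ± 13.1 (SD, n = 6) and 178 ± 8.26 (n = 5), and the log2 change of 0.17 (SE 0.11) had an adjusted p of 0.766 in limma. The saline mean at day 5 was 14th of the 15 group means while the valproic acid mean was 9th. The second Hdac1 probe set gave 0.37 (SE 0.25, adjusted p = 0.816 over all probe sets). On that probe set the groups overlapped, at 69.1 to 206 in valproic acid rats and 45.9 to 249 in saline rats. The lowest value of each group was that of 7F160 and of 1F106, whose arrays had GAPDH ratios of 1.04 and 1.58. At day 1 Hdac1 had 180.7 to 216 with a median of 199 in valproic acid rats and 178 to 239 with a median of 207 in saline rats, overlapping groups with a log2 change of -0.065 (adjusted p = 0.885).

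Hdac2, which shares those complexes with Hdac1, and Hdac3, the catalytic subunit of the NCoR/SMRT complex, had the narrowest spread of the 10. Hdac2 had 842 to 1019 with a median of 938 in valproic acid rats and 838 to 1078 with a median of 997 in saline rats at day 1. The day 5 values of Hdac2 were 802 to 1030 (median 899) in valproic acid rats, against 867, 899, 946, 979 and 986 in saline rats. The groups overlapped at both days, and the 95% intervals of the log2 change were -0.15 to 0.10 at day 1 and -0.18 to 0.09 at day 5. Hdac3 had 235 to 273 with a median of 261 in valproic acid rats and 239 to 272 with a median of 262 in saline rats at day 1. After 5 days Hdac3 had 243 to 280.0 (median 271) in valproic acid rats, against 238, 251, 266, 270.0 and 272 in saline rats. Its intervals were -0.12 to 0.10 at day 1 and -0.09 to 0.15 at day 5, so folds above 1.11 or below 0.92 were outside the Hdac3 interval at both days.

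**Figure D2:**
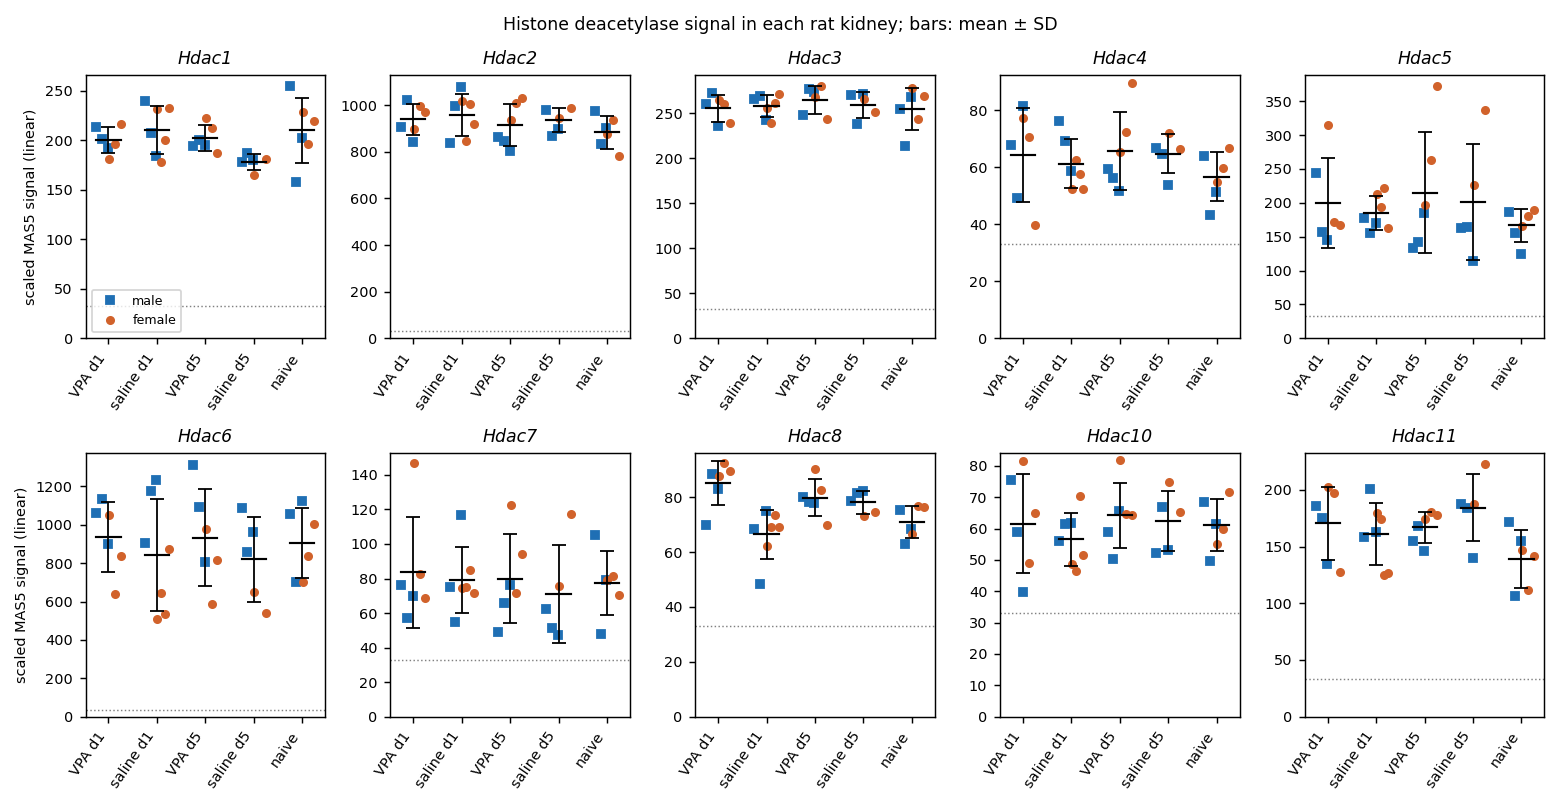
Scaled signal (linear axis from 0) of the used probe set of each of 10 histone deacetylase genes in every rat given valproic acid (VPA) or saline for 1 or 5 days (d1, d5) and in naive rats; squares are males, circles females, black bars the mean ± SD, and the dotted line the signal limit of 33.1. Hdac8 in valproic acid rats at day 1 sits at 82.9 or more in 5 of 6 rats, above all 7 saline rats, and the groups overlap for most other genes.

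The class IIa genes, whose products repress targets of MEF2 factors until kinases move them out of the nucleus, showed overlapping groups at both days. Hdac4 had 39.7 to 81.5 with a median of 69.0 in valproic acid rats and 52.5 to 76.1 with a median of 58.5 in saline rats at day 1, and a log2 change of 0.04 (SE 0.12). At day 5 Hdac4 had 51.8 to 89.6 (median 62.2) in valproic acid rats, against 53.7, 64.7, 66.4, 66.6 and 72.1 in saline rats (log2 change -0.0013). The lowest and the highest Hdac4 values were both in valproic acid rats at either day.

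Hdac5 had 145 to 315 with a median of 169 in valproic acid rats and 156.1 to 222 with a median of 178 in saline rats at day 1 (log2 change 0.08, SE 0.16). After 5 days Hdac5 had 133.2 to 372 (median 190.4) in valproic acid rats, against 114.6, 163, 164, 227 and 337 in saline rats (0.06, SE 0.17). A single female set the top of each of 3 of these groups, 7F155 and 7F160 of the valproic acid rats and 1F106 of the saline rats. These 3 arrays had GAPDH ratios of 1.24, 1.04 and 1.58, among the 4 highest of the 89. With the GAPDH ratio as a term, the Hdac5 change was -0.051 at day 1 and 0.19 at day 5, and neither passed, with adjusted p values of 0.961 and 0.693.

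Hdac7, which is prominent in endothelium, had 57.2 to 147.1 with a median of 73.1 in valproic acid rats and 54.9 to 117 with a median of 75.1 in saline rats at day 1 (log2 change 0.06, SE 0.16). The value of 147.1 was again that of 7F155, and without that rat the change was -0.074. After 5 days Hdac7 had 48.9 to 122.9 (median 74.1) in valproic acid rats, against 47.1, 51.4, 62.4, 75.7 and 117.6 in saline rats (0.13, SE 0.18). Endothelial markers had changes above 0 at day 1 in 7 of 7 tested and below 0 at day 5 in 6 of 7, with 0 called at either day.

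Of the class IIb genes, Hdac6, the tubulin deacetylase, had 637 to 1133 with a median of 975 in valproic acid rats and 509 to 1235 with a median of 876 in saline rats at day 1. After 5 days Hdac6 had 589 to 1311 (median 898) in valproic acid rats, against 541, 651, 859, 960.0 and 1087 in saline rats. The groups overlapped, and the log2 changes were 0.17 (SE 0.14, adjusted p = 0.742) and 0.23 (SE 0.15, adjusted p = 0.777). By sex, the day 1 change was -0.093 in males and 0.39 in females, and the difference of -0.48 did not pass (unadjusted p = 0.0838, adjusted p = 0.788). Hdac10, known as a polyamine deacetylase, had 39.9 to 81.4 with a median of 61.8 in valproic acid rats and 46.5 to 70.2 with a median of 56.01 in saline rats at day 1 (0.08, SE 0.11). The day 5 values of Hdac10 were 50.2 to 81.7 (median 64.4) in valproic acid rats, against 52.2, 53.0, 65.2, 66.9 and 74.7 in saline rats (0.03, SE 0.13). Its dimmer probe set 1384991_a_at gave -0.027 at day 1 (adjusted p = 0.973 over all probe sets) and 0.31 at day 5 (0.772).

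Hdac11, the class IV gene, had 127 to 203 with a median of 180.4 in valproic acid rats and 125 to 201 with a median of 163 in saline rats at day 1 (log2 change 0.07, SE 0.17). At day 5 it had 145.8 to 180.7 (median 171) in valproic acid rats, against 139.9, 184, 187, 187 and 223 in saline rats. There 0 of 6 valproic acid rats lay above the saline mean of their sex, but the lowest value of all was a saline rat's. The log2 change of -0.12 (SE 0.18, adjusted p = 0.947) lay within the spread.

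Set against the mean of the other 6 groups of the same day, 0 of 10 members passed at day 1 (0.149% of all genes) and 0 of 10 at day 5 (0.0701% of all genes). By unadjusted p under 0.05 the counts were 1, Hdac8 (9.96% of all genes), and 0 (7.14% of all genes). Member changes in these comparisons ran from -0.04 to 0.15 at day 1 and from -0.067 to 0.15 at day 5. Against naive rats, 0 of 10 passed at day 1 (0.701% of all genes; at unadjusted p under 0.05, 1 member and 15.1% of all genes) and 0 of 10 at day 5 (1.42% of all genes; at unadjusted p under 0.05, 0 members and 14.5% of all genes). For a change that differed between days limma called 0 of 10 members and 0% of all genes, with 1 member and 5.6% of all genes at unadjusted p under 0.05. For a change that differed between males and females it called 0 of 10 at each day, and 0% of all genes at day 1 and 0.00876% at day 5. At unadjusted p under 0.05 these were 0 members at either day, against 6.51% of all genes at day 1 and 8.87% at day 5.

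Over all 15 groups, the distance between the highest and the lowest group mean was 0.12 log2 units for Hdac3, 0.19 for Hdac2, 0.28 for Hdac6 and 0.30 for Hdac8. It was 0.31 for Hdac10, 0.34 for Hdac1, 0.36 for Hdac4 and for Hdac5, 0.45 for Hdac7 and 0.48 for Hdac11. The SD of single rats within groups, with both sexes together, ran from 0.09 for Hdac3 to 0.36 for Hdac6. Neighbours in the order of the 15 means lay at most 0.13 apart, a gap found for Hdac10. For every member the largest gap was below that SD, which holds the difference between the sexes and is a spread of rats, not of group means. Naive rats had the lowest mean of Hdac3, Hdac4 and Hdac5, and tobramycin rats at day 1 that of Hdac2, Hdac6 and Hdac10. Doxorubicin rats at day 1 had the highest mean of Hdac7 (94.2 ± 17.4), Hdac10 (72.8 ± 18.0) and Hdac11 (202 ± 50.1, SD, n = 6 each), and the lowest of Hdac1 (177 ± 19.8).

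**Figure D3:**
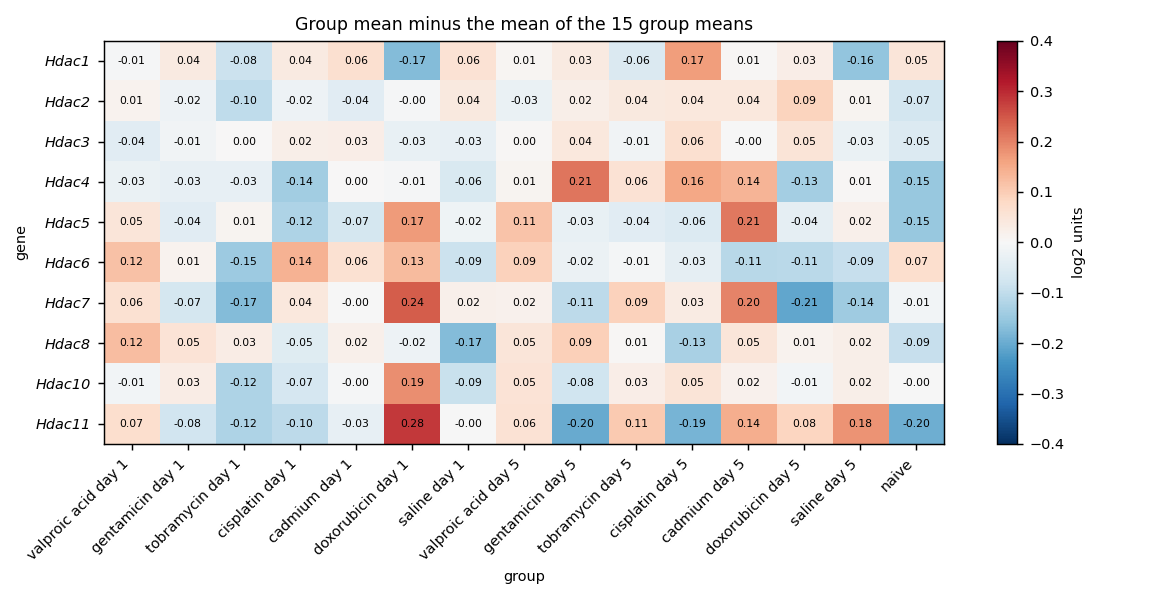
Mean log2 signal of each histone deacetylase gene in each of 15 groups minus the mean of the 15 group means (colour and printed value, log2 units). Deviations run from -0.21 to 0.28, and Hdac8 has its highest mean in valproic acid rats and its lowest in saline rats at day 1.

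In the 10 comparisons of the 5 nephrotoxicants with saline, 0 of 100 member tests passed and 9 had an unadjusted p under 0.05 in limma. Over the same 10 comparisons 0.161% of all gene tests passed and 7.32% had an unadjusted p under 0.05. The changes of members ran from -0.38 to 0.33. The highest value and the smallest adjusted p belonged to Hdac1 after 5 days of cisplatin, at 200.5 to 314 with a median of 215, against 164 to 187 with a median of 179.9 in saline rats. These groups did not overlap, as held for 0.403% of all genes there. The log2 change was 0.33 (SE 0.11, unadjusted p = 0.00311, adjusted p = 0.162, with 0.412% of all genes called). The value of 314 was that of a single male, 3M24, flagged below as lying apart from the rest of his group. On the second Hdac1 probe set the groups overlapped, and every cisplatin rat lay within the range of the saline rats. Dividing-cell markers summed to between 1298 and 2352 (median 1459) in the cisplatin rats and between 1115 and 1460 (median 1370) in the saline rats, and their part was not tested. Hdac1 after 1 day of doxorubicin had a value of the opposite sign (-0.23, unadjusted p = 0.0203, adjusted p = 0.533). The most negative values were those of Hdac11 after 5 days of gentamicin (-0.38, adjusted p = 0.475) and of cisplatin (-0.36, adjusted p = 0.407), both set against the same 5 saline rats as Hdac11 under valproic acid (-0.12).

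Sex separated 2 of the 10 members among the 18 control rats, Hdac6 and Hdac5. Hdac6 was higher in males, at 1011 ± 170.0 against 701 ± 172 in females (SD, n = 9 each). The range was 699.8 to 1235 with a median of 1057 in males and 509 to 1004 with a median of 651 in females, and the sexes overlapped. The male-minus-female log2 difference was 0.55 (SE 0.13, adjusted p = 0.00414 by limma). Hdac5 was lower in males, at 156.8 ± 23.3 against 210.2 ± 52.9 in females, a difference of -0.38 (SE 0.11, adjusted p = 0.0195 by limma). Without scaling between arrays the Hdac5 difference was -0.24 and did not pass (adjusted p = 0.729). Its range was 114.6 to 186 with a median of 163 in males and 162 to 337 with a median of 194 in females. Both directions are common in kidney: 23.6% of all genes differed between the sexes, 9.82% higher and 13.8% lower in males, so 2 of 10 is near that background.

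The Hdac6 difference ran the same way in all 15 groups. Its male mean was above its female mean in 15 of 15, with differences of 0.16 to 0.87 log2 units, and the sexes did not overlap in 8. Over all genes and groups, the sexes did not overlap in 29.1% of cases, for groups this small. Hdac5 was lower in males in 13 of 15 groups (median difference -0.26), with no overlap in 4, and Hdac7 was lower in males in 12 of 15 (median difference -0.13), with no overlap in 2, shares near or below that background. Over all 89 rats, a fit added after seeing the data, the differences were 0.47 for Hdac6 (adjusted p = 1.31e-12), -0.31 for Hdac5 (6.54e-06) and -0.25 for Hdac7 (0.000424). Hdac2 was also called there (-0.057, adjusted p = 0.0332 by limma), while in the control rats its value was 0.01 and did not pass. That made 4 of 10 members, against 64.2% of all genes. The 4 arrays with the highest GAPDH ratio were all female, and with the ratio as a term among control rats the Hdac5 difference was -0.26 (adjusted p = 0.032) and that of Hdac6 0.52 (adjusted p = 0.0122). Hdac8, also on the X chromosome, averaged 71.2 ± 10.7 in male and 71.2 ± 4.88 in female control rats (difference -0.031, SE 0.08, adjusted p = 0.798).

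**Figure D4:**
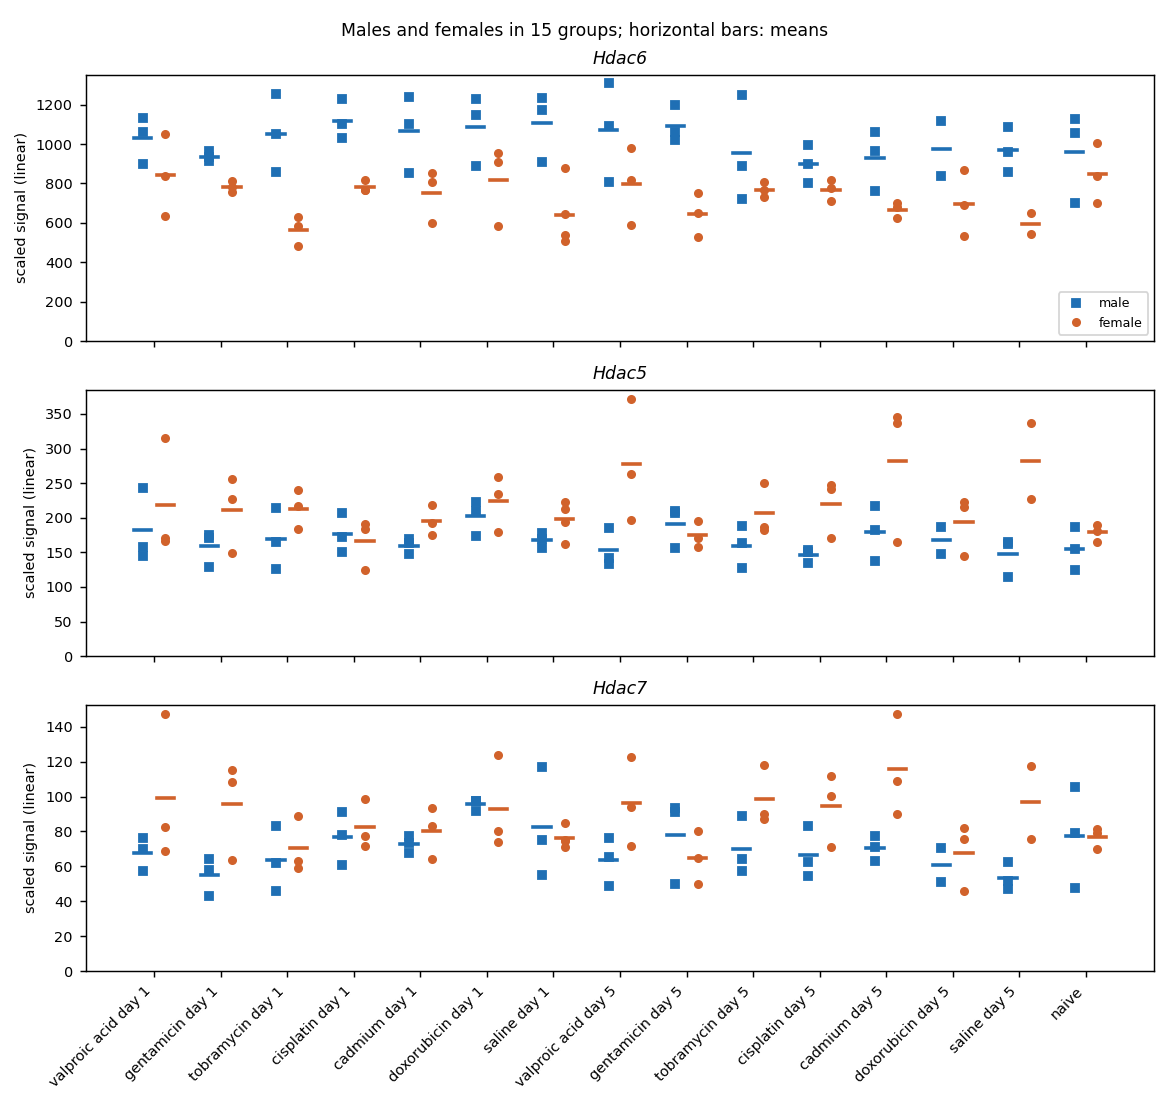
Scaled signal (linear axis from 0) of Hdac6, Hdac5 and Hdac7 in each male (squares, left) and female (circles, right) of 15 groups; horizontal bars are means. Male means of Hdac6 are higher in 15 of 15 groups, and those of Hdac5 and Hdac7 are lower in 13 and 12 of 15.

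After group and sex means were removed, the 45 pairs had a median Pearson r of 0.05 over 89 arrays, ranging from -0.30 to 0.64, and 4 pairs were above 0.4, as were 4.15% of all gene pairs. These were Hdac5 with Hdac7 (r = 0.64, Spearman rho = 0.64), Hdac5 with Hdac11 (r = 0.59, rho = 0.59), Hdac7 with Hdac11 (r = 0.50, rho = 0.48) and Hdac4 with Hdac5 (r = 0.46, rho = 0.44). Leaving out the 2 arrays farthest from the median of Hdac5, the first pair had r = 0.63. The 4 genes of these pairs also correlated with the GAPDH ratio, at r = 0.57 for Hdac5, 0.43 for Hdac7, 0.31 for Hdac11 and 0.26 for Hdac4. With that ratio removed, the r of the 4 pairs was 0.53, 0.53, 0.42 and 0.39 in the same order. Hdac1 and Hdac2, which sit in the same complexes, were not among these pairs.

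**Figure D5:**
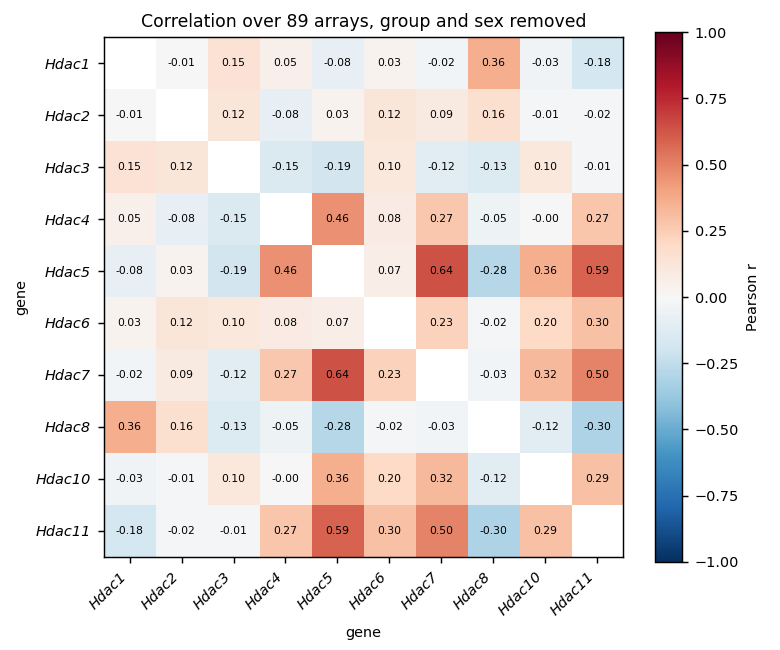
Pearson r between histone deacetylase genes over 89 arrays after group and sex means were removed (colour and printed value). The highest values join Hdac5, Hdac7 and Hdac11 (0.50 to 0.64), and the lowest of the 45 is -0.30.

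Over the same 89 residuals, the genes most like each member were chosen by the highest Pearson r. For Hdac11 they were Rap1gap (r = 0.81) and Nbl1 (0.76), for Hdac5 Tnks1bp1 (0.78) and Ints1 (0.76), and for Hdac7 Zmiz2 (0.73) and Hsf1 (0.73). Hdac2 was most like Herc4 (0.67) and Asap2 (0.66), Hdac1 like Arglu1 (0.59) and Spats2l (0.55), and Hdac3 like Ppp2r1a (0.57) and Aamp (0.56). Likeness was lower for the rest, namely Hdac6 with Wdr13 (0.56) and Slc38a3 (0.45), and Hdac4 with Cxxc5 (0.49) and Arhgef16 (0.48). Hdac10 followed Jph2 (0.47) and Cracdl (0.45), and Hdac8 followed Rbm8a (0.42) and Rbm39 (0.39).

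Genes that work with the deacetylases did not pass against saline under valproic acid either. Of 28 tested subunits of the complexes that carry class I enzymes, 0 rose and 0 fell against saline at day 1 and at day 5, with medians of 0.01 at either day. The smallest p at day 1 was that of Ncor1, the corepressor that activates Hdac3 (-0.16, unadjusted p = 0.00709, adjusted p = 0.31), followed by Rcor1, the CoREST scaffold (0.40, adjusted p = 0.346), and Sin3b (0.10, adjusted p = 0.66). Against naive rats Ncor1 fell at day 5 (-0.22, adjusted p = 0.0471), the single subunit of 28 called there, against 1.42% of all genes. At day 5 against saline the subunits with the smallest p were Tbl1x (-0.26), Arid4b (0.19) and Arid4a (0.18), with adjusted p values of 0.695, 0.742 and 0.756.

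Histone acetyltransferases, which oppose the deacetylases, had 0 of 15 called at either day against saline. Their smallest adjusted p was 0.279, for Ncoa1 at day 1 (-0.18), and next came Kat2a (-0.34) and Kat6b (0.21). At day 5 Kat14 (0.24), Ncoa3 (0.42) and Taf1 (0.29) had the smallest p, at adjusted values of 0.687 or more. Sirtuins, the NAD-dependent deacetylases that valproic acid does not inhibit, had 0 of 6 called. Sirt3, the main mitochondrial deacetylase, averaged 263 ± 30.9 in valproic acid rats (SD, n = 6) and 345 ± 42.004 in saline rats (n = 5) at day 5, a log2 change of -0.35 (SE 0.10, unadjusted p = 0.000758, adjusted p = 0.173). At day 1 Sirt3 gave -0.15 (adjusted p = 0.624).

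Bromodomain and YEATS proteins, which bind acetylated lysine, had 0 of 13 called against saline, with 11 of 13 values above 0 at day 1 and 8 at day 5. Their median was 0.09 at day 1, against 0.014 over all genes. Against the mean of the other groups at day 1 all 13 values were above 0 and 0 of 13 were called, the smallest p being that of Brd9, a subunit of a chromatin-remodelling complex (0.16, unadjusted p = 0.000825, adjusted p = 0.15). Partners of class IIa enzymes (MEF2 factors, 14-3-3 proteins and the kinases that export them) had 0 of 17 called. The list also held Hdac9, itself a class IIa deacetylase. The smallest p values were those of Prkd2 (0.28), Sik2 (-0.15) and Mef2a (0.16) at day 1 and of Ywhah (-0.15), Sik2 (-0.10) and Camk1 (-0.13) at day 5, with adjusted p values of 0.391 or more.

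Genes that often respond to deacetylase inhibitors in cultured cells had 0 of 13 called at either day against saline. Their medians were 0.00048 at day 1 and 0.05 at day 5. At day 1 the smallest p values were those of Txnip, a regulator of thioredoxin (4406 ± 611 in valproic acid rats and 3902 ± 259 in saline rats, 0.18, adjusted p = 0.538), Klf2 (-0.26) and Myc (-0.26). At day 5 they were those of Cdkn1c (0.30, adjusted p = 0.7), Tyms (0.21) and Txnip (0.13). Against the other 6 groups at day 5 Cdkn1a, the cell cycle inhibitor p21 that deacetylase inhibitors raise in many cell lines, had a value of -0.46 (unadjusted p = 0.0107, adjusted p = 0.586). That comparison sets valproic acid against a mean that holds the 5 nephrotoxicants and saline.

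Other enzymes that valproic acid is linked to, in GABA breakdown, inositol supply and fatty acid oxidation, had 0 of 18 called against saline. Aldh5a1, which makes succinate from the GABA product succinic semialdehyde, averaged 80.8 ± 8.44 in valproic acid rats and 101.3 ± 11.9 in saline rats at day 1 (-0.27, unadjusted p = 0.00312, adjusted p = 0.246). At day 5 it averaged 74.2 ± 4.17 in valproic acid rats and 86.3 ± 9.08 in saline rats (-0.19, adjusted p = 0.652). Against naive rats at day 5 it was lower (-0.32, adjusted p = 0.0477), the single gene of 18 called there, against 1.42% of all genes. Impa2, an inositol monophosphatase, gave -0.51 at day 1 (adjusted p = 0.447), and Cpt1a, which brings fatty acids to mitochondria, gave 0.17 at day 1 (adjusted p = 0.488) and 0.18 at day 5 (0.645).

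Among lists of cell type markers, dividing cells at day 1 were the one list with members called against saline. Against the other 6 groups 5 of 10 rose at day 1 (0.149% of all genes called), Top2a, Cdk1, Ccnb1, Ccnb2 and Mki67 (0.51 to 0.80). Without scaling between arrays, 0 genes were called in that comparison. Red blood cell genes summed to 2409 to 6314 with a median of 4111 in valproic acid rats at day 5, to 4915 to 6617 with a median of 5668 in saline rats of that day and to 5930 to 9025 with a median of 6140 in naive rats. Of the 3 tested, 0 were called against saline, and against naive rats 2 fell at day 5 (1.42% of all genes called), Hbb, a beta globin (-0.71, adjusted p = 0.0111), and Alas2, which starts haem synthesis in red cell precursors (-1.02, adjusted p = 0.00523). Against the other 6 groups at day 5 Hbb was called with the opposite sign (0.66, adjusted p = 0.00545), and those groups include doxorubicin rats, in which the 3 genes summed to 87.8 to 124.9. Macrophage and granulocyte markers summed to 2209 to 3076 in valproic acid rats and 2283 to 3452 in saline rats at day 1, where 0 of 7 tested had a change above 0 (median -0.16). Lymphocyte markers had 0 of 5 above 0 at day 1 against saline (median -0.074), with 0 called. Of the 8 lymphocyte markers listed, 0 were above the signal limit on all arrays and 3 were above it on no array. At day 5 the macrophage and granulocyte markers summed to 2172 to 6531 (median 2812) in valproic acid rats and 2814 to 3287 (median 3202) in saline rats. Of these markers, 0 of 7 tested were called at either day. Against naive rats at day 5, 1 of 7 fibroblast markers was also called lower (adjusted p = 0.0481 by limma). There 1 of 5 loop of Henle and distal tubule markers was called higher (adjusted p = 0.0492 by limma). At day 1 against naive rats, 3 of 10 dividing-cell markers were called higher and 1 of 3 red blood cell genes lower (0.701% of all genes called).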

How the data were processed

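The arrays measured kidney mRNA of 89 rats in 15 groups. The authors deposited 1 intensity per probe set and array, on a linear scale, and the submitters' processing notes name MAS5, with no version or scaling target given in the sources used here. The number of arrays limits the precision. Each array was scaled to a common 2% trimmed mean (180.9), 16 was added and log2 taken. Probe sets were named from GEO's platform annotation: 20826 had 1 symbol, 436 several and 9780 none, with 57 control probe sets left out. Coordinates and promoters come from RefSeq (GRCr8); the gene IDs of 9 of 10 members matched, and Hdac6 was placed by symbol. A gene was read from its brightest probe set and tested where at least 5 arrays passed the 40th percentile (11420 genes).

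limma 3.58.1 (R 4.3.3; lmFit and eBayes with trend and robust) fitted 15 group means and sex over all arrays, and p-values were adjusted by Benjamini-Hochberg with a limit of 0.05. Sex among control rats was fitted on the 18 saline and naive arrays. Groups came from the titles. Named genes are all members, the 3 with the smallest p of each list in each comparison, and the 2 genes most like each member; cell type markers that passed were named after their values were seen. The members, lists and comparisons were chosen with earlier results of these data known, and the all-rat sex fit was added later. Figures were drawn with matplotlib.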

Additional observations from a re-analysis of the deposited data

Results flagged for a closer look

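Within groups, 5 of 150 sets of values (10 genes in 15 groups) had 1 rat farther from the rest than Dixon's 95% limit allows, and chance gives about 1 in 20 such sets. In the valproic acid rats at day 1, the female 7F155 had an Hdac7 signal of 147.1, against 57.2 to 82.5 in the other 5 rats. Her array had a GAPDH ratio of 1.24, and her Hdac5 signal of 315 was the highest of the group. In cisplatin rats Hdac1 was 140.5 in male 3M21 at day 1, against 206 to 254 in the others, and 314 in male 3M24 at day 5, against 200.5 to 225 in the others. Hdac3 was 307 in male 2M13 given gentamicin for 5 days, against 261 to 272 in the others. Hdac10 was 81.7 in female 5F141 given cadmium for 5 days, against 53.5 to 62.8 in the others, and the same rat had the highest Hdac7 signal of all rats (147.4). The causes were not tested.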

How the results depend on the processing

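Under valproic acid 0 members were called in any of the 4 comparisons with saline or with the other groups, under 15 and 14 other settings and with each rat left out in turn. The number of all genes called moved with the settings. Against saline at day 1 (26 genes), it was 9 with the groups compared alone, 2 without scaling, 51 with array weights and 68 with saline and naive pooled, and 11 to 31 leaving out 1 rat. Against saline at day 5 (17 genes), it was 0 with the groups compared alone, 1 without scaling, 9 without a filter, 10 with every probe set, 9 with the mean of a gene's probe sets, 10 with array weights, 3 without the 5 arrays of absent or differing text, 11 without 1F104, 10 without trend and robust eBayes and 88 with saline and naive pooled, and 4 to 33 leaving out 1 rat. Against the other groups at day 1 (17 genes), it was 0 without scaling, 11 with a pseudocount of 1, 52 with array weights and 10 without the 5 arrays, and 2 to 18 leaving out 1 rat; at day 5 (8 genes), 5 with the groups compared alone, 0 without scaling and 5 with the mean of probe sets, and 3 to 8 leaving out 1 rat. Hdac8 at day 1 ranged from 0.14 without scaling to 0.36 with a pseudocount of 1 (adjusted p 0.0566 with array weights to 0.827). Among control rats the sex difference (2700 genes, 2 members) gave 748 genes and 1 member without scaling, where Hdac5 was -0.24 (adjusted p = 0.729), and 7337 genes and 4 members over all 89 rats, where Hdac2 was -0.057 and so reversed. Leaving out 1 control rat gave 2362 to 3184 genes and 2 members throughout. Against saline under other settings, the signs of uncalled member changes turned in 16 values at day 1 and 9 at day 5. The causes were not tested. No paired analysis was possible because animals gave 1 array each and their codes link none to another. With 5 to 7 rats a group, changes smaller than the intervals given could not be detected.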
